A study of Mus musculus with 11 samples.

Results

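The genes described here encode the machinery that carries nuclear-encoded proteins into mitochondria. They were taken from the deposited count table by name: protein-coding genes whose symbol begins with Timm or Tomm followed by a digit, with Pam16, Grpel1, Hspa9 and Dnajc19 added. This gave 29 of 47131 genes, of which 27 had enough counts to be tested among 14840 genes. The 11 libraries came from mouse colorectal organoids, which are cultures of colon epithelium embedded in Matrigel. The donors were C57BL/6J females aged 6 to 8 weeks. In the NAP group (6 libraries) the organoids received 10 pM NAP for 48 h. The control group (5 libraries) is described as having no treatment in one label and as vehicle-treated, with phosphate-buffered saline, in another. The labels do not say what NAP is. They call the replicates biological but name no separate mouse or culture for each, so the p-values speak only of library-to-library spread, some of which may be technical.

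Nearly all mitochondrial proteins are made in the cytosol and enter the organelle through translocases. The TOM complex of the outer membrane recognises incoming proteins with its receptors and passes them through the Tomm40 channel. The TIM23 complex of the inner membrane takes proteins that carry a cleavable presequence, and an ATP-driven motor with the chaperone encoded by Hspa9 at its core pulls them into the matrix. The TIM22 complex inserts metabolite carriers into the inner membrane, and small TIM chaperones escort such hydrophobic proteins across the intermembrane space. Colon epithelium depends on mitochondria to oxidise the butyrate made by gut bacteria.

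Count totals ranged from 16546263 to 21947414 per library. The 7 epithelial markers (Epcam, Krt8, Krt18, Krt19, Vil1, Cdh1 and Cdx2) summed to 9101 to 16601 CPM (the usual depth-normalised read count, here with TMM scaling between libraries) in controls and 9853 to 13467 CPM after NAP. None passed edgeR's test, with the smallest p in Cdh1 (log2 fold change 0.78, adjusted p = 0.0664) and Cdx2 (−0.82, adjusted p = 0.0815), which DESeq2 called higher and lower (adjusted p = 0.00436 and 0.0258). Fibroblast markers summed to at most 3.87 CPM in controls and 21.5 CPM after NAP, immune markers to at most 12.2 and 14.2 CPM, and endothelial markers to at most 4.81 and 4.95 CPM. Tuft cell markers summed to 0.346 to 1.61 CPM in controls and 0.614 to 2.99 CPM after NAP. The tuft cell gene Il25 was at 0 in every library. Trpm5, the 1 tested gene of that list, had a log2 fold change of 1.04 (adjusted p = 0.208 in edgeR's test). Goblet cell markers summed to 1609 to 6910 CPM and 1439 to 4001 CPM, with 4 of 6 negative. Enteroendocrine markers summed to 174 to 541 CPM and 226 to 449 CPM, with 3 of 5 negative and 0 called in either list. The absorptive colonocyte list summed to 1291 to 16264 CPM in controls and 5018 to 8794 CPM after NAP, and the stem cell list to 121 to 1430 CPM and 251 to 495 CPM, with 0 of 8 and 0 of 5 tested genes called and median log2 fold changes (NAP minus control) of −0.22 and −0.97. All 5 tested stem cell genes were negative. Proliferating cell markers summed to 269 to 806 CPM and 350 to 561 CPM, with 0 of 6 called, 5 of 6 negative and a median log2 fold change of −0.50. The score of colonocyte minus stem cell markers (mean log2 deviation) was 3.53 and 3.33 in controls 2 and 5, −3.09, −1.60 and −4.61 in controls 1, 3 and 4, and −1.03 to 1.63 after NAP. In bulk RNA, fewer cells of a type and less RNA per cell cannot be told apart.

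Timm50, a TIM23 receptor subunit, fell 1.89-fold and Timm13, a small TIM chaperone, fell 2.34-fold, and these 2 of the 27 tested import genes passed the test over all genes. No member passed in the upward direction. The background was 1.07% of all tested genes called lower and 1.05% called higher (edgeR's quasi-likelihood test, adjusted p below 0.05), or 2.12% in either direction. DESeq2 called 5 members lower (Timm50, Timm13, Tomm40, Timm10b and Timm17b, adjusted p = 5.78e-04 to 0.0286), beside 6.78% of the genes it tested. At an unadjusted p below 0.05 in edgeR, 12 members stood lower and 0 higher, beside 12.7% and 10.8% of all genes. The log2 fold change (NAP minus control) was negative in all 27, with a median of −0.47, beside 55.3% of all tested genes and a median of −0.07. Over the alternatives 20 to 27 were negative, fewest without controls 2 and 5 together, where the median was −0.21. Those controls had the highest colonocyte scores, whose part in the members' values was not tested. Both calls ended with the GC trend across genes removed, where the log2 fold changes of Timm50 and Timm13 shrank from −0.92 and −1.23 to −0.50 and −0.76 (adjusted p = 0.107 and 0.112). With length and GC trends removed they were −0.32 and −0.51 (adjusted p = 0.239 and 0.0948), and without controls 2 and 5 −0.71 and −0.68 (0.0510 and 0.0895). Of the 25 alternatives, Timm50 passed in 13 and Timm13 in 9. Timm13 missed the threshold in edgeR with upper quartile scaling (adjusted p = 0.0525). It also missed it in limma on voom (0.0528) and on FPKM values (0.0584 and 0.0578). Timm50 missed it in edgeR with no filter on low counts (adjusted p = 0.0573). Both calls also changed with single libraries left out. Timm50 lost its call without control 1, 2 or 5 or NAP 2, 4, 5 or 6 (adjusted p = 0.0254 to 0.113 over the 11 fits that each left out 1 library), and Timm13 without any 1 of these libraries or control 3 (0.0350 to 0.128). Without control 1, 2 or 5 or NAP 2, 4 or 5, 0 of all tested genes were called. Over the 11 fits Timm50 had log2 fold changes of −1.04 to −0.82, at unadjusted p = 4.58e-05 to 9.07e-04 in edgeR's test (2.02e-04 in the reported fit). For Timm13 the values were −1.37 to −0.99, at unadjusted p = 2.37e-04 to 0.00347 (8.92e-04 in the reported fit).

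**Figure D1:**
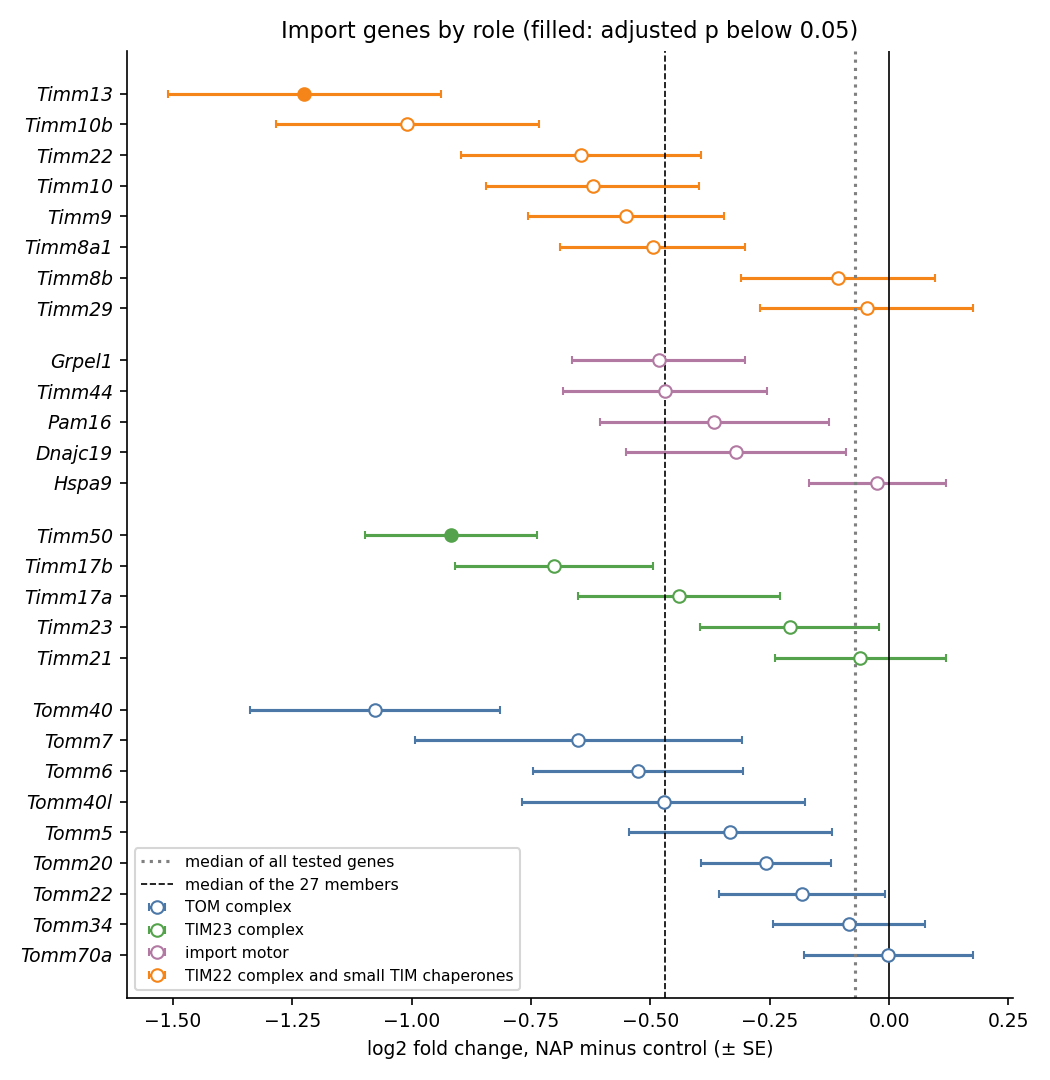
Log2 fold change of each tested import gene, NAP minus control, with its standard error, grouped by role on the vertical axis. Filled points (Timm50 and Timm13) passed an adjusted p of 0.05, the dashed line is the median of the 27 members (−0.47) and the dotted line that of all tested genes (−0.07).

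Summed over the 29 members, import transcripts took 1626 to 2134 CPM in controls (mean 1876 ± 210 CPM, SD, n = 5) and 1342 to 1691 CPM after NAP (1487 ± 120 CPM, SD, n = 6), so the groups overlapped through control 4 at 1626 CPM and NAP 3 at 1691 CPM. Hspa9 alone gave 457 ± 41.5 and 450 ± 37.1 CPM of these sums. Without it the sums were 1418 ± 237 and 1038 ± 112 CPM. The median deviation of the 27 tested members from their own means (log2 scale) was highest in controls 2 and 5, at 0.58 and 0.51, and 0.12, 0.18 and 0.02 in controls 1, 3 and 4. After NAP it was −0.06 in NAP 1, 0.09 in NAP 3 and −0.34 to −0.25 in the other libraries. Control 2 held the highest value of 13 members and control 5 that of 5, while the lowest value lay in NAP 5 for 8 members and in NAP 6 for 6. The high members of controls 2 and 5 and the low members of NAP 2, 4, 5 and 6 stand out as columns in the heat map by library.

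**Figure D2:**
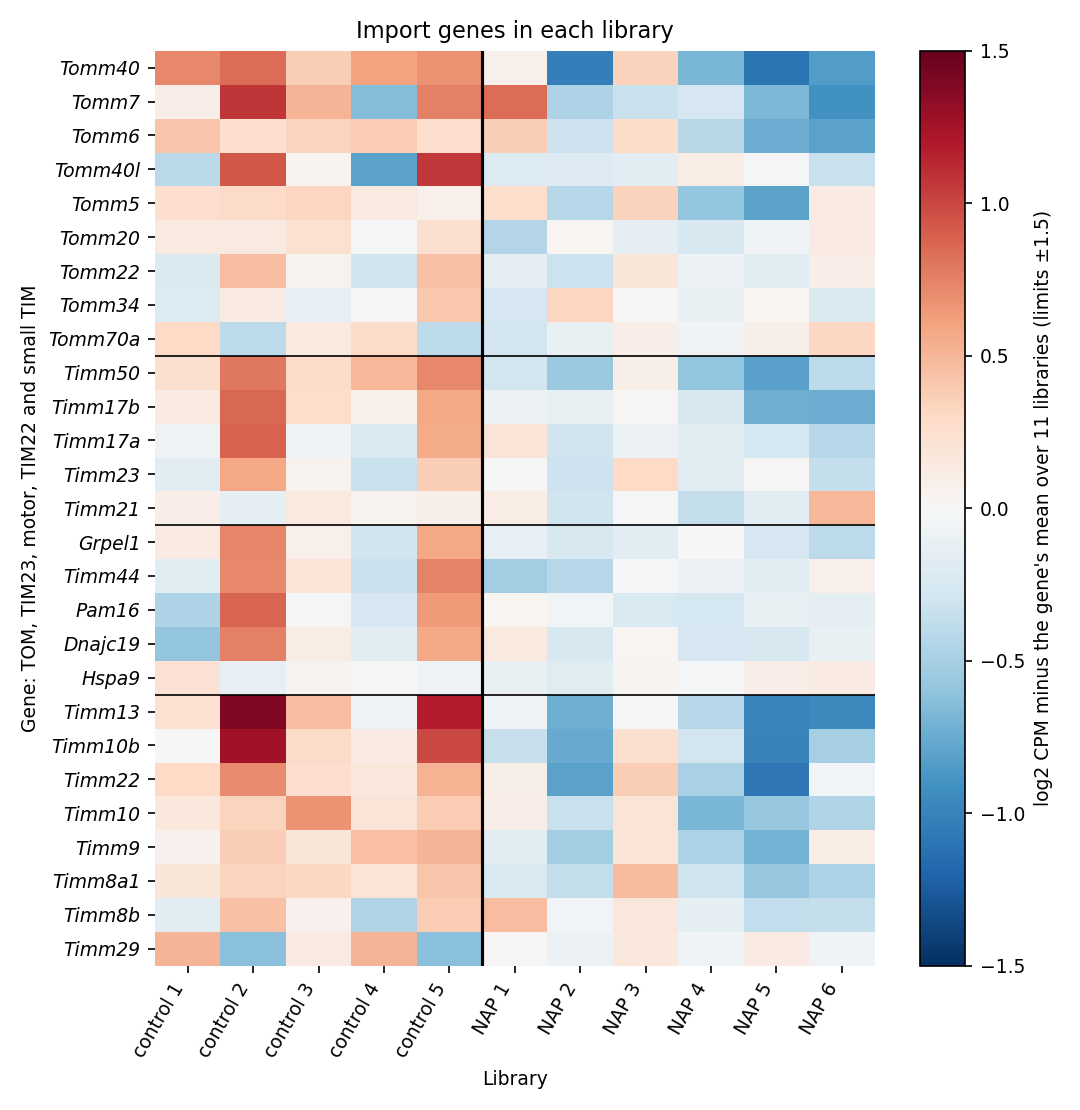
Heat map of 27 import genes (rows, by role) in 11 libraries (columns), with colour for log2 CPM minus the gene's mean over all libraries. Controls 2 and 5 are high in most rows but low in Timm29 and Tomm70a, and NAP 1 and NAP 3 are paler than the other NAP libraries.

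At the outer membrane, Tomm40 encodes the channel through which almost all imported proteins pass. Controls held 137, 149, 107, 127 and 133 CPM (libraries 1 to 5) and NAP libraries 87.7, 40.9, 106, 51.8, 39.0 and 46.6 CPM (libraries 1 to 6). Every NAP library lay below every control, though NAP 3 came close to control 3. Such a separation downward was seen in 3 members, Tomm40, Timm50 and Timm17b, beside 2.57% of all tested genes. No member lay above every control after NAP, beside 2.14% of all tested genes. Tomm40 (gene identifier 53333, chromosome 7 from 19435238 to 19449370 of GRCm39) had a mean of 131 ± 15.4 and 62.0 ± 27.9 CPM. Its log2 fold change of −1.08 (SE 0.26) narrowly missed the threshold in edgeR's test (adjusted p = 0.0517) and passed it without NAP 1 (adjusted p = 0.0359), without NAP 3 (0.0268), in DESeq2 and in limma on voom and FPKM values.

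The remaining TOM members differed less, and none passed the test. Among the receptors, Tomm20 and Tomm22, which bind presequences, had log2 fold changes of −0.26 and −0.18. Tomm70a, the receptor for carriers and other proteins with internal signals, was at 0.00, with 122 ± 28.5 CPM in controls and 122 ± 17.2 CPM after NAP. Controls 2 and 5, at 92.1 and 91.6 CPM, held the lowest Tomm70a values of all libraries, against 134 to 148 CPM in the other controls and 99.6 to 149 CPM after NAP. This is the reverse of their place in Tomm40l, the paralog of the channel gene, where they stood at 77.1 and 84.3 CPM against 23.2 to 41.6 CPM in the other controls and 32.0 to 43.7 CPM after NAP. The log2 fold change of Tomm40l was −0.47 (SE 0.30, adjusted p = 0.355 in edgeR's test). The small subunits Tomm5, Tomm6 and Tomm7, which stabilise the complex, were at −0.33, −0.53 and −0.65. Controls kept a narrow range in Tomm6, at 43.2 to 48.4 CPM, and NAP 1 and NAP 3, at 47.2 and 44.0 CPM, lay within it, while the other NAP libraries held 20.8 to 29.4 CPM. Tomm34, a cytosolic cochaperone that is no subunit of the complex despite its name, was at −0.08.

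In the TIM23 complex, Timm50 (identifier 66525, chromosome 7 from 28005251 to 28011471) encodes the subunit that receives presequence proteins from the outer membrane and helps to keep the channel closed. Controls held 46.9, 68.6, 48.7, 56.0 and 65.7 CPM and NAP libraries 32.9, 26.9, 42.4, 26.4, 22.6 and 30.3 CPM. The groups did not overlap, and the gap lay between NAP 3 and control 1. The fall from 57.2 ± 9.77 to 30.2 ± 6.92 CPM had a log2 fold change of −0.92 (SE 0.18, adjusted p = 0.0386 in edgeR's test, n = 5 and 6). Its interval meets that of the noncoding gene Gm51445 on the opposite strand, which had a mean of 0.414 CPM.

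Timm17b and Timm17a encode alternative forms of the channel-forming subunit. For Timm17b (identifier 21855, chromosome X from 7765575 to 7773891) controls held 22.3, 37.3, 24.7, 21.6 and 30.8 CPM and NAP libraries 19.2, 19.0, 20.8, 17.3, 12.3 and 12.2 CPM. The groups did not overlap, but NAP 3 and control 4 were less than 1 CPM apart, and the log2 fold change of −0.70 (SE 0.21) did not pass (adjusted p = 0.0775 in edgeR's test). Timm17a had 59.2 ± 20.96 and 43.6 ± 6.82 CPM and a log2 fold change of −0.44 (SE 0.21, adjusted p = 0.230 in edgeR's test). Its controls 2 and 5, at 90.0 and 71.9 CPM, lay above all other libraries, and the remaining controls at 41.5 to 46.4 CPM lay within the NAP range of 36.2 to 55.7 CPM. Timm23, the partner of Timm17 in the channel, and Timm21, which links the complex to respiratory chain assembly, were at −0.21 and −0.06.

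**Figure D3:**
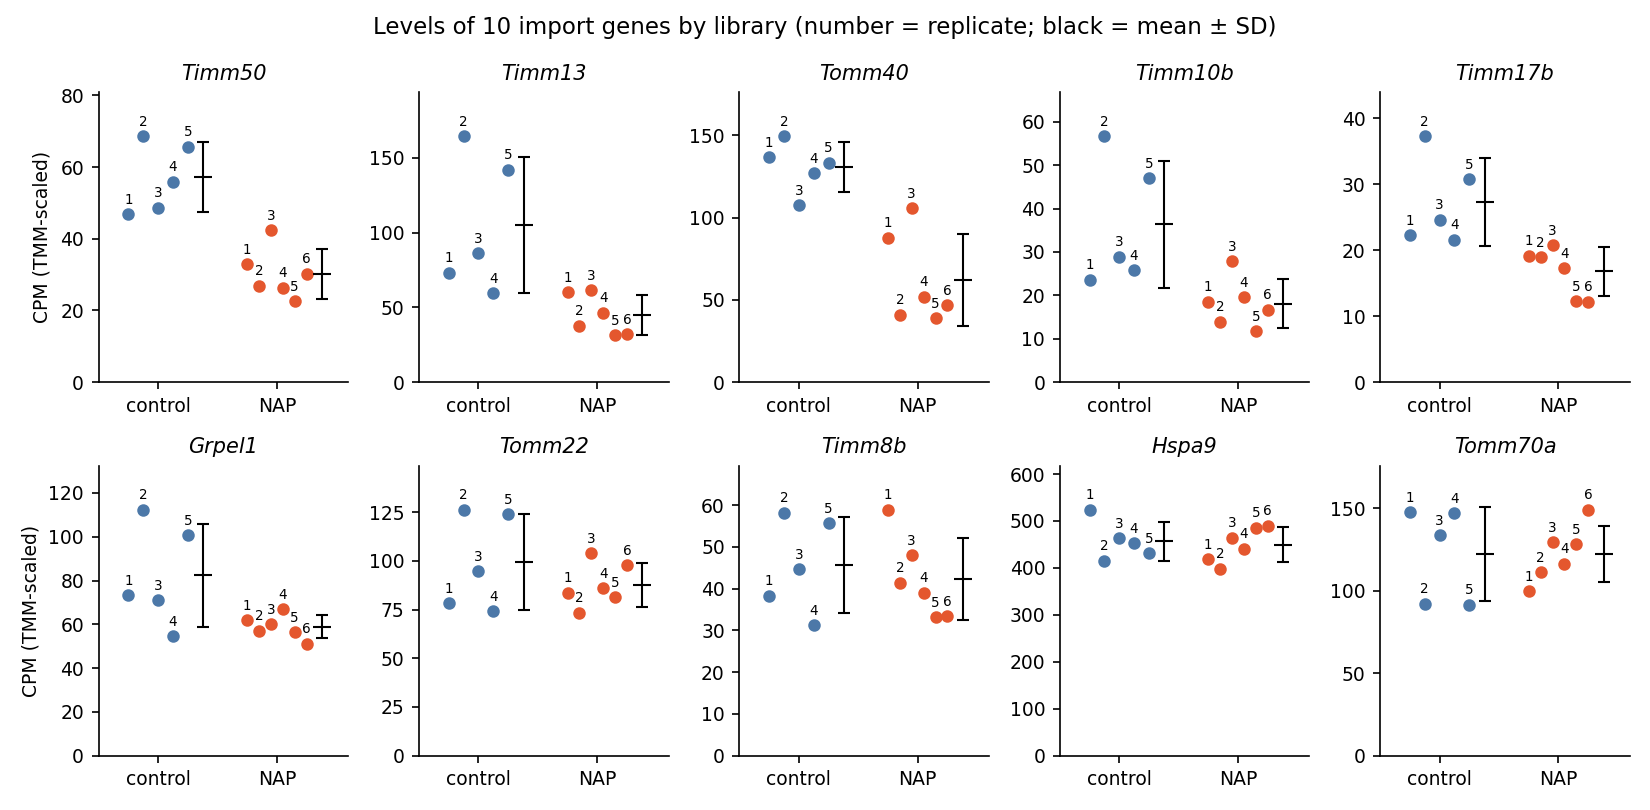
CPM of 10 import genes in each library (points, numbered by replicate, on axes that start at 0), with the group mean and SD in black. The groups separate in Timm50, Tomm40 and Timm17b, and overlap in the other 7 genes, with equal means in Tomm70a (122 CPM in each group).

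No member of the import motor passed the test. Hspa9, the most abundant member per gene length at 150 CPM per kb in controls and 148 CPM per kb after NAP, had a log2 fold change of −0.02 (SE 0.14). Grpel1, the nucleotide exchange factor that releases ADP from this chaperone, had controls at 73.3, 112, 70.9, 54.7 and 101 CPM and NAP libraries at 61.9, 57.04, 60.05, 67.0, 56.5 and 51.2 CPM. Control 4 lay inside the NAP range and controls 2 and 5 far above it, with a log2 fold change of −0.48 (SE 0.18, adjusted p = 0.132 in edgeR's test). Timm44, which tethers the chaperone to the channel, was at −0.47, and its controls 2 and 5 held 128 and 130 CPM against 53.95 to 88.5 CPM in all other libraries. The J-protein Dnajc19, which stimulates the chaperone's ATPase, and its regulatory partner Pam16 were at −0.32 and −0.37. For both genes controls 2 and 5 were the highest libraries and control 1 the lowest, so that the NAP values lay inside the control range.

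The TIM22 branch and its chaperones had the lowest median of the 4 roles, at −0.59 over 8 tested members. The medians were −0.33 for the 9 TOM members, −0.44 for the 5 TIM23 members and −0.37 for the 5 motor members, and these differences between roles were not tested. Of the 12 members with an unadjusted p below 0.05, 6 belonged to this branch, namely Timm13, Timm10b, Timm10, Timm9, Timm22 and Timm8a1. Timm13 (identifier 30055, chromosome 10 from 80735284 to 80736803) works with Timm8 proteins as a chaperone hexamer. Controls held 73.2, 165, 86.3, 59.5 and 142 CPM and NAP libraries 60.2, 37.8, 61.5, 46.5, 31.5 and 32.2 CPM. Controls 2 and 5 were the highest, and control 4 fell among the NAP libraries, just under NAP 1 and NAP 3. The fall from 105 ± 45.7 to 44.9 ± 13.5 CPM had a log2 fold change of −1.23 (SE 0.29, adjusted p = 0.0477 in edgeR's test).

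Timm10b, a small TIM protein bound to the TIM22 complex (identifier 14356, chromosome 7 from 105289652 to 105304955), showed a similar order. Controls held 23.6, 56.7, 28.9, 25.8 and 46.97 CPM and NAP libraries 18.5, 13.9, 27.9, 19.6, 11.7 and 16.7 CPM. NAP 3 was the 1 treated library above the lowest control, and the log2 fold change of −1.01 (SE 0.28) did not pass (adjusted p = 0.0648 in edgeR's test, 0.0141 in DESeq2). Without NAP 3 it passed edgeR's test too. The gene's interval shares 4973 bases with Dnhd1 on the same strand, which had a mean of 2.58 CPM.

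Timm9 and Timm10 form the chaperone hexamer that carries most precursors to TIM22. For Timm10 controls held 9.36 to 13.4 CPM (median 10.6) and NAP libraries 5.17 to 9.59 CPM (median 6.36), with NAP 3 alone above the lowest control (log2 fold change −0.62, SE 0.22, adjusted p = 0.121 in edgeR's test). For Timm9 controls held 13.4 to 18.3 CPM (median 16.6) and NAP libraries 7.79 to 14.6 CPM (median 10.3), with NAP 3 and NAP 6 inside the control range (−0.55, SE 0.21, adjusted p = 0.132). Timm22, the carrier channel, was at −0.64 and Timm8a1 at −0.49 (SE 0.19, adjusted p = 0.147 in edgeR's test). In Timm8a1 controls lay between 22.2 and 26.1 CPM, NAP 3 lay above them at 27.1 CPM, and the other NAP libraries held 13.1 to 16.6 CPM. Timm8b and Timm29, the latter a TIM22 subunit, were at −0.11 and −0.05. Timm8b (SE 0.20, adjusted p = 0.782 in edgeR's test) held 31.2 to 58.3 CPM in controls and 33.2 to 58.9 CPM after NAP. Timm29 shared with Tomm70a its low values in controls 2 and 5, at 19.6 CPM in each against 33.1 to 43.2 CPM in the other controls and 28.5 to 33.8 CPM after NAP.

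The 2 members that were not tested were all but silent. Timm8a2 had counts of 0 to 7 per library and Tomm20l, a paralog of the receptor gene Tomm20, 0 to 5 counts, where 3 counts, the limit that a count of 0 allows, stand for 0.137 to 0.181 CPM. No fold change is given for these genes. Per gene length the tested members ranged in controls from 5.09 CPM per kb in Timm21 to 150 CPM per kb in Hspa9. After Hspa9 the highest levels were those of Tomm22 (97.2 CPM per kb), Timm8b (86.6) and Timm13 (85.8). After NAP the order was Hspa9 at 148, Tomm22 at 85.6, Timm8b at 80.4 and Tomm5 at 45.8 CPM per kb, with Timm13 at 36.7 CPM per kb.

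Ratios between partner genes within a library do not depend on the scaling between libraries. They can still carry a library's trend with GC content or gene length, and no pair was compared with such a trend removed. For 5 pairs with at least 10 counts of each gene everywhere, the log2 ratio of counts per length was compared by two-sided exact permutation over 462 splits, with adjustment over the 5 pairs. No pair passed after adjustment. Grpel1 stood to its paralog Grpel2 at 1.11, 1.57, 0.940, 0.778 and 1.26 in controls 1 to 5 and at 0.781, 0.426, 0.814, 0.526, 0.380 and 0.588 in NAP libraries 1 to 6. Thus 4 of 6 NAP libraries lay below every control and the other 2 within the control range, with a mean log2 difference of −0.96 (exact permutation p = 0.0130, adjusted p = 0.0649). The Tomm40 to Tomm40l log2 ratio was 2.196 ± 0.77 in controls and 1.32 ± 0.65 after NAP (exact permutation p = 0.0779, adjusted p = 0.0974). Timm17a over Timm17b was 1.84 ± 0.16 and 2.15 ± 0.26 on that scale (exact permutation p = 0.0498, adjusted p = 0.0830). For Timm8a1 over Timm8b the values were −2.11 ± 0.30 and −2.55 ± 0.32, with 5 of 6 NAP libraries below every control (exact permutation p = 0.0433, adjusted p = 0.0830). For Timm9 over Timm10, which are built into 1 hexamer, they were −0.41 ± 0.29 and −0.34 ± 0.31 (exact permutation p = 0.732). Single libraries decided these calls. Without control 4 Grpel1 over Grpel2 passed (−1.09, adjusted p = 0.0476). Without NAP 3 the first 4 of these pairs each had an adjusted p of 0.0397 and mean log2 differences of −1.07, −1.06, 0.36 and −0.54.

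**Figure D4:**
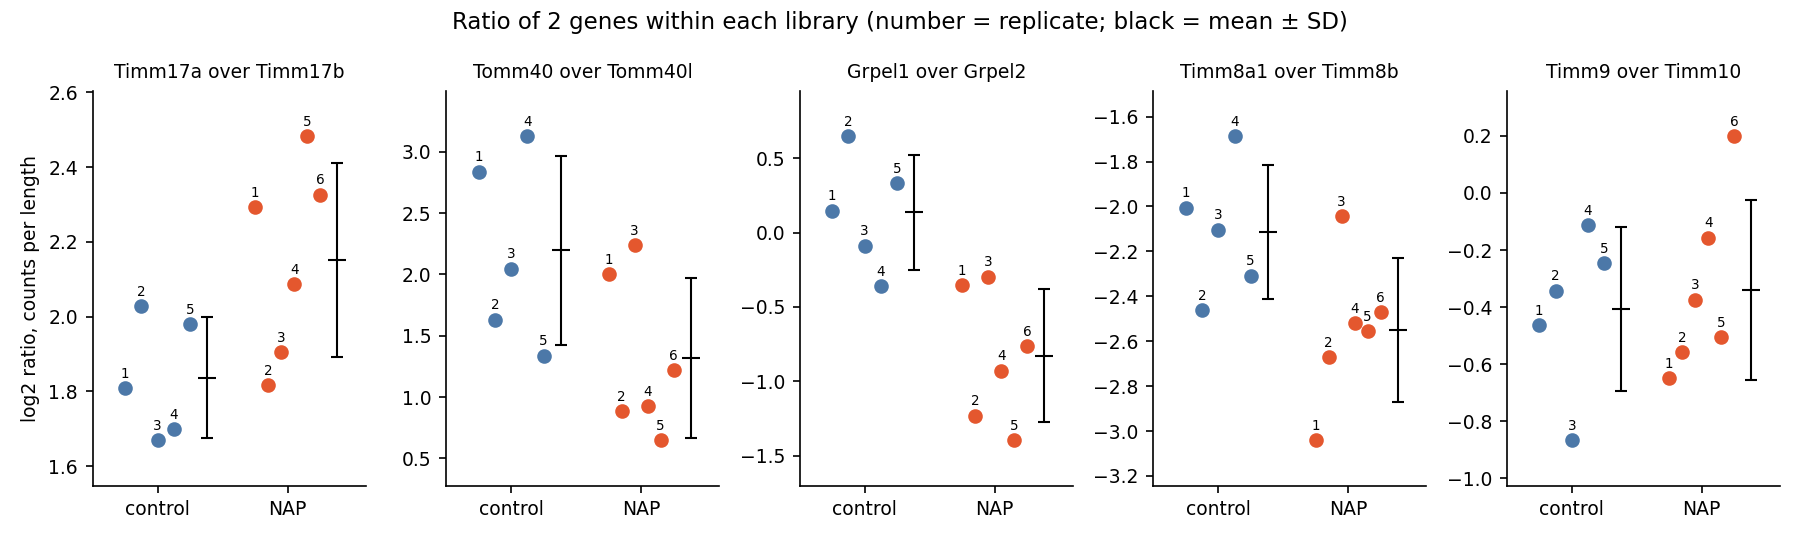
Log2 ratio of counts per gene length for 5 gene pairs in each library (points, numbered by replicate), with the group mean and SD in black; vertical axes differ and do not start at 0. The mean for Grpel1 over Grpel2 moves from 0.13 in controls to −0.83 after NAP, while the Timm9 over Timm10 groups share most of their range.

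Base composition and gene length moved with these results. Across the 27 members the log2 fold change was lower at higher transcript GC content (Spearman's rho −0.65, n = 27 genes of the same libraries) and higher at greater gene length (rho 0.25). Over all tested genes with a value the coefficients were −0.44 and 0.22. Timm13, Timm50 and Tomm40 had the highest GC contents of the tested members, at 61.5, 59.3 and 58.1%, and Tomm70a the lowest at 39.2%. The median GC content was 51.2% in the members and 50.9% over all tested genes, and the median length 1782 and 3466 bases. The rank correlation of a library's deviations with GC content was 0.0153 to 0.360 in controls and −0.539 to 0.109 after NAP. In each of 5 GC bins the members' median lay below that of all tested genes. Above 57% GC the 3 members had a median log2 fold change of −1.08 and the 1882 tested genes one of −0.46, and between 47 and 52% GC the 8 members had −0.27 and the 3510 genes −0.04. The members' median was lower in each length bin too. The gap was small up to 1000 bases (−0.35 and −0.30) and from 3000 to 4000 bases (−0.054 and −0.052). From 1000 to 2000 bases the 13 members had −0.55 and the 2553 genes −0.26. With the length trend removed 22 of 27 members were negative, their median was −0.30 and 2 were called. With the GC trend removed 26 of 27 members were still negative and their median was −0.37, but 0 were called, with 14 at an unadjusted p below 0.05. With GC and length trends both removed 22 were negative, the median was −0.29 and 0 were called, with 9 at an unadjusted p below 0.05.

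**Figure D5:**
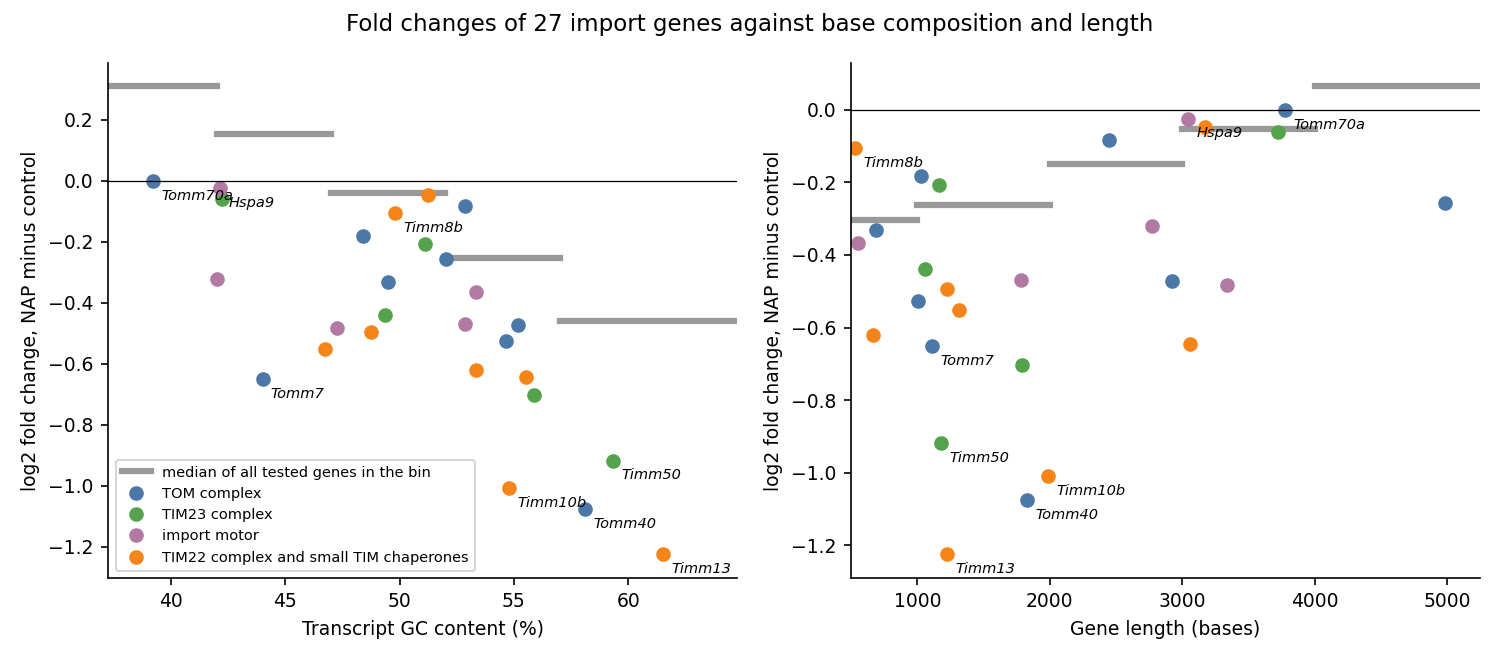
Log2 fold change of 27 import genes against transcript GC content (left) and gene length (right), coloured by role, with grey bars for the median of all tested genes in each bin. The 3 members with over 57% GC (Timm13, Tomm40 and Timm50) and Timm10b have the lowest log2 fold changes, at −1.23 to −0.92, and most members lie below the grey bar of their GC bin.

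Promoters of 4 members are shown to set those with the lowest p beside Tomm70a, whose level was equal in both groups. They are the 140 bases before the transcription start from RefSeq windows on GRCm38.p6, read 5′ to 3′ on the gene's strand, with matches to the motifs below in capitals.
Timm50, chr7:28312047-28312186, minus strand: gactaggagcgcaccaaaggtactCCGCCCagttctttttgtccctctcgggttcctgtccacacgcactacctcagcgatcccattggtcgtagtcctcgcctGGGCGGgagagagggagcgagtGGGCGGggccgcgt
Timm13, chr10:80900970-80901109, minus strand: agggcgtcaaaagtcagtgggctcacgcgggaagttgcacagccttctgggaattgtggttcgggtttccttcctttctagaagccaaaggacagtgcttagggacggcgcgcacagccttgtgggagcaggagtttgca
Tomm40, chr7:19715430-19715569, minus strand: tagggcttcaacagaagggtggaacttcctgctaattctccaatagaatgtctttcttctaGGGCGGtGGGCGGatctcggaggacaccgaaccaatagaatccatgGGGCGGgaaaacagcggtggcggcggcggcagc
Tomm70a, chr16:57121574-57121713, plus strand: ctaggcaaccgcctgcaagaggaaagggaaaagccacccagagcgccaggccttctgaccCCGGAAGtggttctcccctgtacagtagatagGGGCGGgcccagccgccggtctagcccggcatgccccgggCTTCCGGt

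The motifs were searched on both strands in windows of 300 bases (250 before and 50 after the start). Windows were found for 25 of 29 members, 23 of them tested, with 25 windows for the tested members. NRF1 and GABPA are transcription factors known to act on nuclear genes for mitochondrial proteins. The GABPA core CCGGAAG was in 10 of the 25 windows (40%) and in 8.86% of all 32851 windows. It was in windows of Grpel1, Timm10, Timm10b, Timm23, Timm29, Timm8b, Tomm22, Tomm34 and Tomm70a, so of the promoters shown only that of Tomm70a held it. The NRF1 core GCGCATGC was in 2 windows (8%; Grpel1, and Timm13 upstream of the stretch shown) and 2.71% of all. The full NRF1 palindrome, which contains that core, was in 0 of the 25 windows and 0.971% of all, and the palindrome with its central base left free in 3 (Pam16, Timm8b and Tomm20) and 4.60%. The E-box CACGTG was in 4 windows (16%) and 7.15% of all, and the YY1 core AAGATGGC in 1 (Timm50, after its start) and 2.75%. The GC box GGGCGG, which overlapped no other match in the sequences shown, was in 14 windows (56%) and 35.7% of all. The median GC content was 58.0% in these windows and 52.7% in all windows, and its part in the counts was not tested. A match describes letters only, and these data do not bear on binding.

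Other genes of mitochondrial import and protein quality control were read from 4 fixed lists. No gene of any of them passed edgeR's test. Among other translocase subunits and receptors 9 of 11 were negative with a median of −0.34, 3 stood lower and 1 higher at an unadjusted p below 0.05, and DESeq2 called 3 lower. Mtch1 and Mtx1, outer membrane proteins of insertion and sorting, had 177 ± 26.1 and 113 ± 24.0 CPM, and 53.5 ± 19.1 and 29.9 ± 6.86 CPM (adjusted p = 0.0611 and 0.0692 in edgeR's test). Grpel2, the stress-linked paralog of Grpel1, went the other way with 103 ± 7.44 and 153 ± 45.3 CPM. Its controls held 93.5 to 113 CPM and its NAP libraries 104 to 210 CPM (log2 fold change 0.57, SE 0.20, adjusted p = 0.113 in edgeR's test). In the disulfide relay, insertase and presequence peptidase list 4 of 9 were negative (median 0.00), 2 stood lower and 0 higher at an unadjusted p below 0.05, and DESeq2 called 1 lower. Those 2 were Gfer and Chchd4, the sulfhydryl oxidase and the oxidoreductase that fold small TIM proteins, with log2 fold changes of −0.78 and −0.52 (adjusted p = 0.0726 and 0.167). The processing peptidase genes Pmpca and Pmpcb were at 0.01 and 0.03.

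Matrix chaperones and quality control proteases were negative in 9 of 14 (median −0.36). At an unadjusted p below 0.05, 6 stood lower and 2 higher, and DESeq2 called 5 lower and 1 higher. Phb, a prohibitin gene, had 166 ± 37.9 and 93.0 ± 26.8 CPM and Trap1, a mitochondrial HSP90, 89.4 ± 5.00 and 63.4 ± 8.61 CPM (adjusted p = 0.0598 and 0.0600 in edgeR's test). Hspd1, the HSP60 chaperonin, was at 0.02, close to Hspa9 among the members. The regulators of nuclear mitochondrial genes were negative in 9 of 14 (median −0.08), with 2 lower and 2 higher at an unadjusted p below 0.05, and DESeq2 called 1 lower and 2 higher. Polrmt, the mitochondrial RNA polymerase, had 35.3 ± 10.1 and 18.5 ± 6.04 CPM and Gabpa 38.7 ± 6.79 and 56.8 ± 10.1 CPM (adjusted p = 0.0599 and 0.0855). Ppargc1a and Esrra, also at an unadjusted p below 0.05, were at 0.41 and −0.66 (adjusted p = 0.0925 and 0.146 in edgeR's test). Nrf1 was at −0.09 and Myc at −0.44. Transcripts of the mitochondrial chromosome took 2.74 to 4.78% of counts in controls and 5.17 to 8.08% after NAP, opposite in direction to the import genes, and with that chromosome left out before scaling the members' median stayed at −0.47 with 2 called.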

How the data were processed

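Per the labels' protocols, mRNA was enriched on poly(T) beads, fragmented, reverse transcribed from random primers and read on an Illumina sequencer. The authors deposited whole-number counts per gene, used for all tests, and FPKM values, used in alternatives only. Per the submitters' processing notes, Trimmomatic 0.39, HISAT2 2.2.1 with GRCm39 and featureCounts of Subread 2.0.8 were used. How featureCounts handled strand and reads with several hits is not stated in those notes, which leaves overlapping genes and close copies uncertain. The deposited FPKM values equalled counts per length times 1 constant per library.

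Groups and replicate numbers came from the titles, and all libraries carry batch label 1. Genes were filtered with filterByExpr (defaults), scaled with TMM and tested in edgeR 4.0.16 under R 4.3.3 (robust quasi-likelihood fit, NAP minus control). P-values were adjusted by Benjamini-Hochberg over 14840 genes, with a threshold of 0.05. The 800 rows without a gene name stayed in the fit. Standard errors are the log2 fold change over the root of the test statistic. Deviations use log2 CPM with a prior count of 2. Pair ratios add 0.5 counts. GC content is the mean over a gene's GENCODE M21 transcripts (84.0% of tested genes, 27 of 27 members), used as a property without coordinates.

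The members and lists were chosen with earlier results of these data known. Values per library and full statistics are given for the called members, the 8 with the smallest p and the paired genes, in part as ranges, and the other members are given by role. Of other lists, genes past the threshold and the 2 with the smallest p are named, with a few chosen after their values were seen (Grpel2 is in a pair). Alternatives used other scalings and filters, DESeq2 1.42.0, limma 3.58.1 on voom weights, limma on FPKM values in log2 form after adding 1 or 0.1, trend removal by lowess (span 0.3), the replicate number as a block and each library left out. Leaving out controls 2 and 5 or 1 and 4 together and removing the GC trend alone were added after seeing the data. The procedure was run on simulated counts, drawn independently with the same dispersion set for every gene. Those counts held no GC or length trend, so that run cannot speak to the effect of either trend. Count limits cover counting error only. The NRF1 core was added to the promoter search after the matches of the longer NRF1 site were seen.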

Additional observations from a re-analysis of the deposited data

Results flagged for a closer look

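In each group of each tested member (54 groups), the gap of the highest or lowest library to its nearest neighbour was compared with the group's range. Chance marks about 1 group in 20, and 2 were marked. Tomm7, a small TOM subunit, stood at 51.3 CPM in NAP 1, with the next NAP library at 24.1 CPM and the lowest at 15.2 CPM. Timm8a1, a small TIM chaperone, stood at 27.1 CPM in NAP 3, with the next at 16.6 CPM and the lowest at 13.1 CPM. Without NAP 3 Timm8a1 passed edgeR's test (log2 fold change −0.68, adjusted p = 0.0349).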

How the results depend on the processing

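Over all genes 315 were called, 0 to 814 with 1 library left out, 89 with no filter on low counts, 1670 by DESeq2, 824 without controls 2 and 5, 1315 without controls 1 and 4 and 29 with the GC trend removed. Members called numbered 2 in the reported fit, 0 to 5 with 1 library left out, 1 with upper quartile scaling, 1 with no filter, 5 by DESeq2, 0 without controls 2 and 5, 7 without controls 1 and 4 and 0 with the GC trend removed. With length and GC trends removed 0 genes and 0 members were called, with 2382 genes at an unadjusted p below 0.05. The cause of these differences was not tested. The members' median stayed between −0.51 and −0.29 with 1 library left out and was −0.21 without controls 2 and 5, where fewer libraries entered. Tomm40l was at 0.24 without controls 2 and 5, beside −0.47 in the reported fit. Timm8b was at 0.18 without them, 0.18 with the length trend removed, 0.19 with both trends removed and −0.23 to 0.016 with 1 library left out. With 1 library left out, mean log2 differences ranged from −1.09 to −0.84 for Grpel1 over Grpel2, from −1.09 to −0.64 for Tomm40 over Tomm40l, from 0.25 to 0.38 for Timm17a over Timm17b, from −0.54 to −0.33 for Timm8a1 over Timm8b and from −0.049 to 0.14 for Timm9 over Timm10. Of the other members, the log2 fold change was positive in 13 of 25 alternatives for Tomm70a, 7 for Timm29, 5 for Tomm34, 4 for Hspa9, 3 each for Timm23 and Tomm22, 2 for Pam16 and 1 each for Dnajc19 and Timm21.

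Replicate numbers 1 to 5 occur in both groups, and nothing in the labels says what a number shares. The correlation of same-numbered libraries' deviations across genes was 0.42, 0.34, −0.07, −0.30 and 0.30, above 0.1 in 3 of 5 pairs, and controls 1 and 2 alone were most like the NAP library of their own number. The numbers were therefore not used to pair libraries, although some pairing is possible. With the replicate number as a block, 0 genes and 0 members were called (Timm50 adjusted p = 0.147 and Timm13 adjusted p = 0.184, at log2 fold changes of −0.92 and −1.06), with 2871 genes at an unadjusted p below 0.05, and Timm9 over Timm10 was −0.042.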

Other observations

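Timm50, Tomm40 and Timm10b, of the 4 members with the smallest p, all lie on chromosome 7, at positions 28005251, 19435238 and 105289652 of GRCm39, and no other tested member lies there. This was noticed after the values were seen and was not tested.

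Several members overlap genes on the opposite strand that were themselves expressed, so their counts are uncertain, since no source used here gives the strand setting. Dnajc19 shares 12701 bases with Fxr1 (mean 62.1 CPM), Tomm40l 1044 bases with Nr1i3 (29.97 CPM), Grpel1 408 bases with Tada2b (19.3 CPM) and Timm8b 81 bases with Nkapd1 (25.03 CPM). For Timm13 the overlap is 46 bases with Tmprss9, at 0.156 CPM.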
